A study of Mus musculus with 6 samples.

Results

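The genes described here encode the factors that start protein synthesis and the enzymes that load amino acids onto transfer RNAs. They were taken by symbol: every gene named Eif1 to Eif6 with any suffix, Eprs, and every gene whose symbol is the letter of an amino acid followed by ars or ars2, the names of the aminoacyl-tRNA synthetases. Of 12780 genes on the arrays with a probe set of their own, 77 met this rule, 47 initiation factors or their regulators and 30 synthetases. The rule uses only the names, though the set was proposed with earlier results of these data known.

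Initiation begins when eIF2 brings the initiator tRNA to the small ribosomal subunit, which eIF3, eIF1 and eIF1A have prepared. The cap-binding eIF4E, the scaffold eIF4G and the helicase eIF4A recruit the mRNA, and eIF5 and eIF5B complete the joining of the large subunit. Kinases that phosphorylate eIF2 under stress and 4E-binding proteins that hold eIF4E, released when mTORC1 phosphorylates them, set the rate. Each amino acid has its synthetase in the cytosol, and most have a separate nuclear-encoded enzyme for mitochondria, which in this naming ends in 2. Maturing dendritic cells are known to raise and then lower protein synthesis, partly through these regulators.

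The cells were migratory type 1 conventional dendritic cells (cDC1), which present antigen from other cells to CD8 T cells. Both groups came from skin-draining lymph nodes of wild-type C57BL/6 mice. The same sort was used for both, which kept XCR1+ CD40+ cells with high MHC II and intermediate CD11c and removed cells with B220, CD326 or Sirpa on their surface. One group was unstimulated and the other stimulated with an antibody against CD40, the receptor for CD40 ligand of helper T cells, with 3 samples each on 1 array per sample. The labels call the replicates biological but do not say whether each is a separate mouse or a pool. The p-values therefore reflect the spread among these 6 arrays alone, part of which may be technical. Age, sex, and the dose, route and duration of the antibody are also not stated in the labels. The comparison asks how the RNA levels of these cells differ after CD40 is engaged.

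The values are log2 of the deposited intensities, and their precision is limited by the 3 arrays in each group. Array medians were alike (intensity 51.9 to 56.3), but the interquartile range of log2 intensities ran from 1.86 to 2.40 and was widest on the arrays numbered 1 of both groups. Of 14 cDC1 marker genes, 13 were measured, with summed intensities of 5804.5 to 9517 without and 6713 to 10820 with stimulation. Most of that sum came from Irf8, Flt3 and Id2, and Batf3, Cadm1 and Clec9a had unstimulated geometric mean intensities of 654, 172 and 102. Xcr1, on which the cells were sorted, and Itgae, Wdfy4, Naaa, Ifi205 and Snx22 were at 21.7 to 36.2. The 6 markers of keratinocytes read 4.18 to 5.92 on the log2 scale. Of the 77 genes, 9 had a group mean under 5, a mark set after the values were seen: Aars2, Eif2ak3, Eif2b3, Eif4a3l1, Eif4g3, Iars2, Mars2, Tars and Yars. Whether their probe sets read above background was not tested. The markers of 12 other cell types, of which between 1 and 7 genes each were measured, summed to 19.5 to 602.6 without and 19.01 to 683.4 with stimulation. A list of mature migratory dendritic cell genes summed to 15293 to 25498 without and 20254 to 31914 with stimulation, ranges that overlap. With limma 0 of its 11 measured genes were called, and 4 had all stimulated values above all unstimulated ones, against 3.68% of all genes. Fewer cells of a type and less RNA per cell cannot be told apart in such bulk samples.

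The translation genes hardly separated the groups. With limma, 0 of the 77 passed at a Benjamini-Hochberg adjusted p under 0.05, where 0.0156% of all genes passed as higher and 0% as lower, and each of the 77 had an adjusted p of 0.99997. At an unadjusted p under 0.05, 2 were higher with stimulation, Eprs and Eif1ad (2.6%, against 2.07% of all genes), and 0 lower (1.42% of all genes, 3.49% in either direction). All 3 stimulated values lay above all 3 unstimulated ones for 4 genes, Eprs, Eif5b, Eif4g3 and Cars (5.19%, against 3.68% of all genes), and below for 1, Eif2b3 (1.3%, against 3.46%). Together these made 6.49% of the 77, against 7.14% of all genes. With the replicate number of the labels as a block, limma called 0 of the 77, where 0.235% of all genes were called higher and 0.0626% lower. The difference exceeded 0.5 on the log2 scale for 3 genes (3.9%, against 4.79% of all genes) and lay below -0.5 for 2 (2.6%, against 2.59%).

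The median log2 difference, stimulated minus unstimulated, was 0.08 over the 77 genes and 0.005 over all genes. It was positive for 48 of the 77 (62.3%) and for 51.0% of all genes. Without unstimulated replicate 2 the median of the 77 was -0.02, and without stimulated replicate 1 it was 0.02. The fit without a block could not have shown a small change in most of these genes. Its 95% interval of the difference lay within -1 to 1 for 55 genes and within -0.5 to 0.5 for 9. How far variation shared by same-numbered arrays widens these intervals was not tested.

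**Figure D1:**
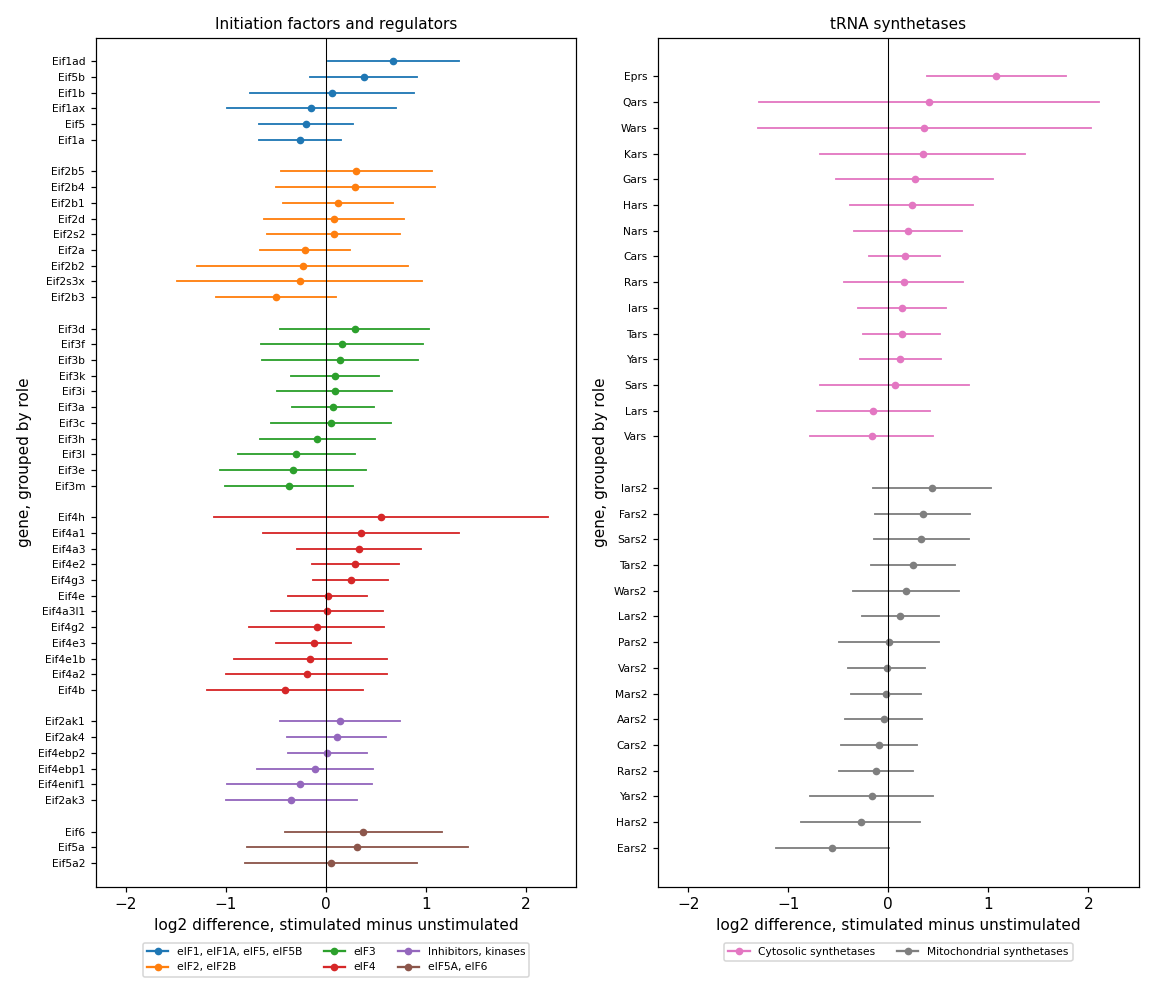
Log2 difference between anti-CD40 stimulated and unstimulated cDC1 for each of the 77 genes (points) with its 95% interval (lines), grouped by role, n = 3 arrays per group. Only the intervals of Eprs and Eif1ad leave out 0, and no gene passed after adjustment over all genes.

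Eprs had the largest difference of the 77. It encodes the glutamyl-prolyl-tRNA synthetase, a single chain that charges the tRNAs of glutamate and of proline and sits in the cytosolic multisynthetase complex. Given in the order of replicates 1, 2 and 3, here and for every gene that follows, its log2 intensity was 7.59, 6.70 and 7.26 without stimulation and 8.70, 7.94 and 8.16 with it. Every stimulated array thus lay above every unstimulated array. The mean went from 7.18 ± 0.45 to 8.26 ± 0.39 (SD, n = 3 each), a 2.11-fold difference in intensity with a 95% interval of 1.31 to 3.41. The log2 difference was 1.08 ± 0.29 (SE), with a limma adjusted p of 0.99997 over all genes (unadjusted p = 0.00743). By the size of the moderated statistic Eprs was number 84 of 12780 genes. Leaving out 1 array at a time gave 0.84 to 1.28. Its limma adjusted p was 0.0502 with the replicate number as a block and 0.0784 with array weights. The labels do not say whether the numbers pair the samples. A difference of at least 1 on the log2 scale in this direction was found for 0.603% of all genes, and for 1 of the 77. Of the mature dendritic cell genes given above, 9 of 11 had positive and 2 negative differences, and their part in the Eprs value was not tested.

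The other cytosolic synthetases did not share the size of that difference. Differences were positive in 13 of the 15 measured and negative in 2, and their median was 0.16 with and without Eprs. The 14 ran from -0.17 for Vars, the valyl enzyme, to 0.40 for Qars, the glutaminyl enzyme. Cars, which charges cysteine tRNA, was low in spread, at 5.40, 5.35 and 5.30 without and 5.47, 5.46 and 5.61 with stimulation. Its groups did not overlap, yet its difference was only 0.16 (95% interval -0.19 to 0.52). All its values lie within the 4.18 to 5.92 read by the keratinocyte markers, and whether its probe set reads above background was not tested.

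Wars encodes the tryptophanyl enzyme, which is known to be induced by interferon gamma. Its values were 8.25, 6.40 and 6.81 without and 8.64, 6.10 and 7.80 with stimulation. The spread within each group was far wider than the difference of 0.36 (95% interval -1.31 to 2.02). Without stimulated replicate 1 the Wars difference was -0.20, without unstimulated replicate 2 it was -0.02, and without stimulated replicate 2 it was 1.07. Kars, the lysyl enzyme, differed by 0.34, Gars, the glycyl enzyme, by 0.26, Hars, the histidyl enzyme, by 0.23, and Lars, the leucyl enzyme, by -0.15. All of these overlapped between groups.

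Mitochondrial synthetases lay on both sides of 0, with 7 positive and 8 negative differences among 15 measured and a median of -0.02. The highest was Iars2, the mitochondrial isoleucyl enzyme, at 5.39, 4.63 and 4.86 without and 5.72, 5.25 and 5.22 with stimulation. Its difference was 0.44 (95% interval -0.16 to 1.03), and unstimulated replicate 1 lay above stimulated replicates 2 and 3. Fars2, the phenylalanyl enzyme, was at 6.58, 5.95 and 6.25 without and 6.66, 6.51 and 6.65 with stimulation and differed by 0.35. Here the overlap came from a single pair, unstimulated replicate 1 above stimulated replicate 2. Sars2, the seryl enzyme, was at 6.06, 5.80 and 5.81 without and 6.03, 6.08 and 6.55 with stimulation and differed by 0.33.

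Ears2 had the most negative difference of the 77. It charges the mitochondrial glutamate tRNA, so it is the organelle's counterpart of the glutamyl activity of Eprs. Its values were 7.42, 6.73 and 7.27 without and 6.85, 6.54 and 6.36 with stimulation. Unstimulated replicate 2 lay below stimulated replicate 1, and otherwise the groups were apart. The mean went from 7.14 ± 0.37 to 6.58 ± 0.25 (SD, n = 3 each), and the difference was -0.56 ± 0.24 (SE, limma adjusted p = 0.99997, 95% interval -1.12 to 0.003). The opposite signs of Eprs and Ears2 were noticed after their values were seen, and the difference between them was not tested.

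**Figure D2:**
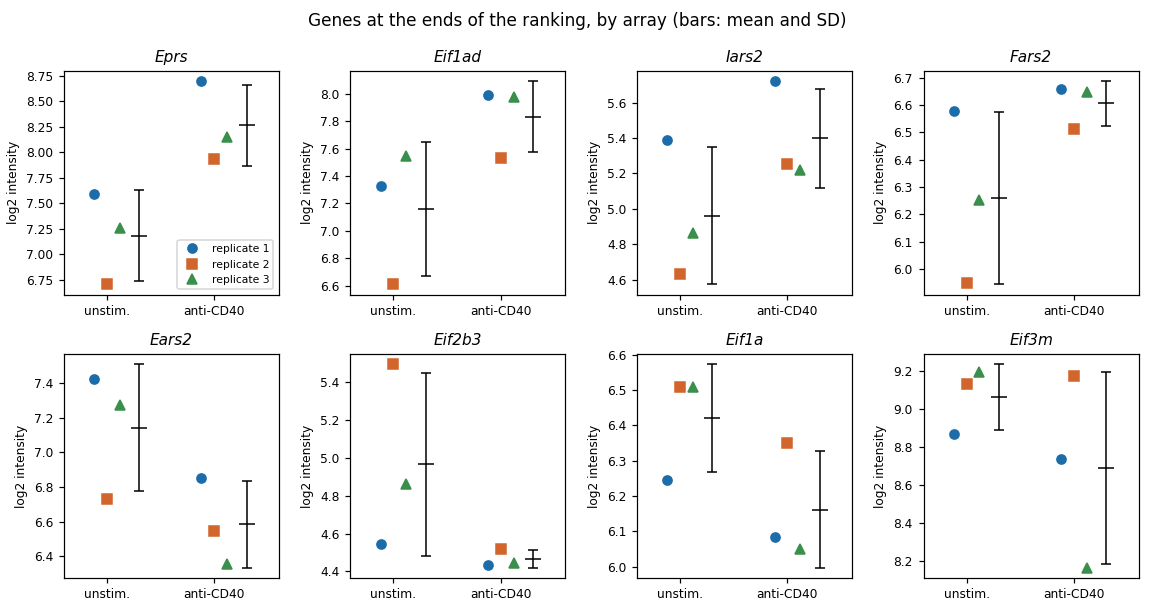
Log2 intensity on each array for the 4 of the 77 genes with the highest (top row) and the 4 with the lowest moderated statistic (bottom row), with circles, squares and triangles for replicates 1, 2 and 3 and black bars for the mean and SD of 3 arrays. Eprs and Eif2b3 have groups that do not overlap, and in the other 6 panels at least 1 array of each group falls within the range of the other.

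Eif1ad was grouped by its name with the factors that select the start codon and join the subunits. In this group Eif1ad and Eif5b led. Eif1ad encodes a protein with a domain like that of eIF1A. It was at 7.33, 6.61 and 7.54 without and 7.99, 7.53 and 7.97 with stimulation, and differed by 0.67 ± 0.28 (SE, 95% interval 0.02 to 1.33, limma adjusted p = 0.99997). Stimulated replicate 2 lay just under unstimulated replicate 3, so the groups overlapped. Without unstimulated replicate 2, its lowest array, the difference was 0.40. Eif5b, the GTPase of subunit joining, was at 6.58, 6.51 and 5.88 without and 6.59, 6.67 and 6.84 with stimulation. Its groups did not overlap, but stimulated replicate 1 exceeded unstimulated replicate 1 by little, and the difference was 0.38 (95% interval -0.16 to 0.91). Without unstimulated replicate 3, its lowest array, it was 0.16.

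The other genes of that group were Eif1a, Eif1ax, Eif1b and Eif5. Eif1a, which encodes a form of the scanning factor eIF1A, was at 6.25, 6.51 and 6.51 without and 6.08, 6.35 and 6.05 with stimulation and differed by -0.26. Eif1ax, its X-linked relative, differed by -0.15, Eif5, the GTPase activator of eIF2, by -0.20, and Eif1b by 0.06.

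For eIF2, its exchange factor eIF2B and the similarly named Eif2a and Eif2d, 9 genes were measured. Differences were positive in 5 and negative in 4, with a median of 0.08. Eif2b3, the gamma subunit of eIF2B, was at 4.55, 5.50 and 4.86 without and 4.44, 4.52 and 4.44 with stimulation. All stimulated values were lower and nearly equal, whereas the unstimulated ones spread widely. The stimulated values lie in the low range given above, where a signal above background was not shown, so the size of this difference is uncertain. The difference was -0.50 (95% interval -1.10 to 0.10), and without unstimulated replicate 2 it was -0.24. The other eIF2B subunits did not share that sign as a group: Eif2b1, Eif2b4 and Eif2b5 differed by 0.12, 0.29 and 0.30, and Eif2b2 by -0.23. Eif2a, which encodes a carrier of initiator tRNA distinct from eIF2, was at 6.08, 6.41 and 6.10 without and 6.24, 5.87 and 5.83 with stimulation and differed by -0.21. Eif2s2, the beta subunit of eIF2, differed by 0.08 and Eif2s3x, the X-linked gamma subunit, by -0.26 (95% interval -1.49 to 0.96). Eif2s1, the alpha subunit that the stress kinases phosphorylate, and the Y-linked Eif2s3y were not analysed here. Xist, the X-inactivation RNA, was at 8.83 without and 8.76 with stimulation and differed by -0.07.

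The eIF3 complex, the scaffold that holds the small subunit in readiness, had 11 genes measured and none beyond 0.4 in either direction. The median was 0.07, with 7 positive and 4 negative differences. Eif3a, its largest scaffold subunit, was at 8.86, 8.74 and 8.83 without and 9.08, 8.91 and 8.64 with stimulation. The difference of 0.07 had an interval of -0.34 to 0.48, and its sign changed without stimulated replicate 1. Eif3d, which can bind the cap itself, had the highest difference at 0.29. The lowest were Eif3m at -0.37, Eif3e at -0.33 and Eif3l at -0.30. For Eif3m the values were 8.87, 9.13 and 9.19 without and 8.73, 9.17 and 8.16 with stimulation, and without stimulated replicate 3, its lowest array, the difference was -0.11. Eif3l was at 6.84, 6.04 and 6.36 without and 6.36, 5.86 and 6.11 with stimulation.

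Of the genes that bind the cap and unwind the mRNA leader, 12 were measured, with a median difference of 0.01. Eif4e, the cap-binding protein itself, was at 7.26, 7.45 and 7.45 without and 7.27, 7.57 and 7.37 with stimulation. Its difference of 0.01 had an interval of -0.38 to 0.41, and its sign changed in 6 of 18 refits, among them centring on array medians and quantile normalisation once more. Eif4e2, a cap-binding homologue that represses translation, was at 8.35, 7.87 and 8.05 without and 8.42, 8.26 and 8.47 with stimulation and differed by 0.29. Eif4g3, a scaffold of the eIF4G family, was at 4.68, 4.41 and 4.56 without and 4.83, 4.73 and 4.84 with stimulation. Its groups did not overlap, at a difference of 0.25 (95% interval -0.13 to 0.62), but all 6 values lie in the low range where a signal above background was not shown. Eif4g1, the main scaffold, was not analysed here.

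The groups overlapped for the helicase genes and their cofactors, as they did for all but 7.14% of all genes. Eif4a1, the main helicase, was at 10.19, 8.62 and 9.36 without and 9.98, 9.22 and 10.03 with stimulation and differed by 0.35. Without unstimulated replicate 2 the difference was -0.04 and without unstimulated replicate 1 it was 0.75. Eif4a2, its close paralogue, differed by -0.19, and Eif4a3, the helicase of the exon junction complex, by 0.33. Eif4b, a cofactor of the helicase, was at 9.55, 8.81 and 9.19 without and 9.29, 8.14 and 8.91 with stimulation and differed by -0.41. Eif4h, another cofactor, had the largest positive difference of these 12 genes, 0.55, with an interval of -1.12 to 2.21.

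Regulators of initiation showed small differences. Eif4ebp1, the best known 4E-binding protein, was at 5.79, 5.83 and 6.08 without and 5.31, 5.89 and 6.17 with stimulation and differed by -0.11. Eif4ebp2 differed by 0.01 (95% interval -0.38 to 0.40). Of the eIF2 kinases, Eif2ak3, which encodes PERK of the endoplasmic reticulum, was at 5.58, 4.83 and 4.72 without and 5.03, 4.49 and 4.57 with stimulation and differed by -0.35. Without unstimulated replicate 1, its highest array, that difference was -0.08. Eif2ak4, which encodes the amino acid sensor GCN2, was at 5.85, 5.61 and 5.99 without and 6.26, 5.84 and 5.67 with stimulation and differed by 0.11. Eif2ak1, the haem-regulated kinase, differed by 0.14. Eif2ak2, the kinase PKR, was not analysed here. These are levels of RNA, and phosphorylation, through which these proteins are controlled, was not measured.

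Eif5a, which lets ribosomes pass through proline stretches and carries the hypusine modification, was at 8.84, 7.49 and 7.78 without and 9.02, 7.51 and 8.52 with stimulation. It differed by 0.31 (95% interval -0.79 to 1.42), and without stimulated replicate 1 by -0.02. Eif6, which keeps the ribosomal subunits apart, was at 7.23, 6.35 and 6.80 without and 7.23, 6.59 and 7.67 with stimulation and differed by 0.37. In both genes the lowest array of each group was the one numbered 2.

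More than 1 probe set was present for 8 of the 77 genes, and the one with the highest mean was used. The probe sets of Eif2s2, Eif4e and Iars differed in sign, all with differences smaller than 0.15 in size. For Eif4a1 the 3 probe sets gave 0.35, 0.35 and 0.39. The second probe set of Eif5a gave 0.80, from 9.20, 5.49 and 6.56 without to 9.05, 6.00 and 8.59 with stimulation, again with the arrays numbered 2 lowest. Several of these genes have near-identical copies in the genome, and which copy a probe set reads was not tested.

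A pattern noticed after the values were seen lay between replicates 1 and 2 and not between groups. For 55 of the 77 genes (71.4%, against 40.1% of all genes) replicate 1 lay above replicate 2 in both groups, and for 17 it lay below in both. Such a share was not particular to these genes. It was 72.7% for the mature dendritic cell genes, and ran from 33.3% (synthetase partners) to 70.4% (mTORC1) in the 6 lists described below. The 77 also read brighter than all genes, with a median log2 intensity of 6.46 against 5.74, and the part of brightness was not tested. The cytosolic synthetases showed the pattern in 15 of 15, although Rars and Tars did so by no more than 0.01 in unstimulated cells. Their median difference between replicates 1 and 2 was 0.75 without and 0.55 with stimulation, larger than their median of 0.16 between groups. The most extreme was Qars, at 8.75, 6.57 and 7.51 without and 9.14, 6.68 and 8.22 with stimulation. Mitochondrial synthetases showed the pattern in 10 of 15, with medians of 0.20 and 0.04, and the eIF1, eIF1A, eIF5 and eIF5B group in 1 of 6, with 4 of 6 lower in replicate 1. In 64 of the 77 genes the mean distance between replicates 1 and 2 was larger than the difference between groups. Single arrays lie farther apart than means of 3 arrays by noise alone, and the share over all genes was not computed. This count therefore shows nothing particular to these genes. Replicates 3 did not share the pattern: the cytosolic synthetases' median deviation from their own means was -0.24 in the unstimulated and 0.18 in the stimulated one. The interquartile range of the arrays given above was wider in replicate 1 than in replicate 2 of both groups, and its part in the pattern was not tested.

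**Figure D3:**
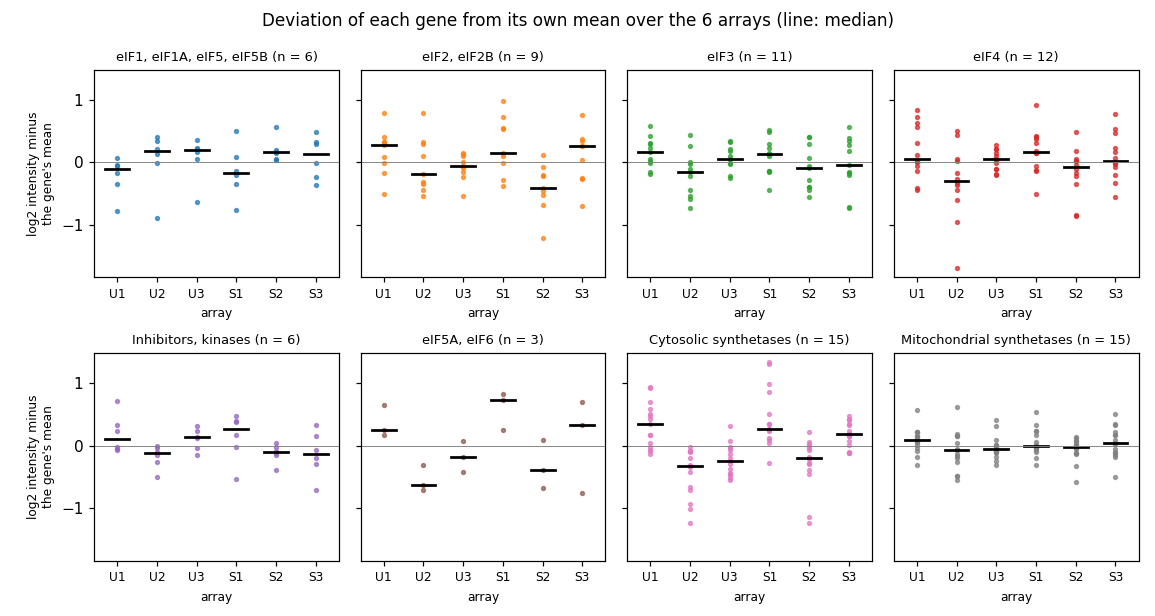
Deviation of each gene's log2 intensity from its own mean over the 6 arrays, by role, with U1 to U3 for unstimulated and S1 to S3 for stimulated replicates, points for genes and black lines for the median. The median of the cytosolic synthetases is 0.34, -0.32 and -0.24 on U1, U2 and U3 and 0.27, -0.20 and 0.18 on S1, S2 and S3, while that of the mitochondrial synthetases stays close to 0.

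**Figure D4:**
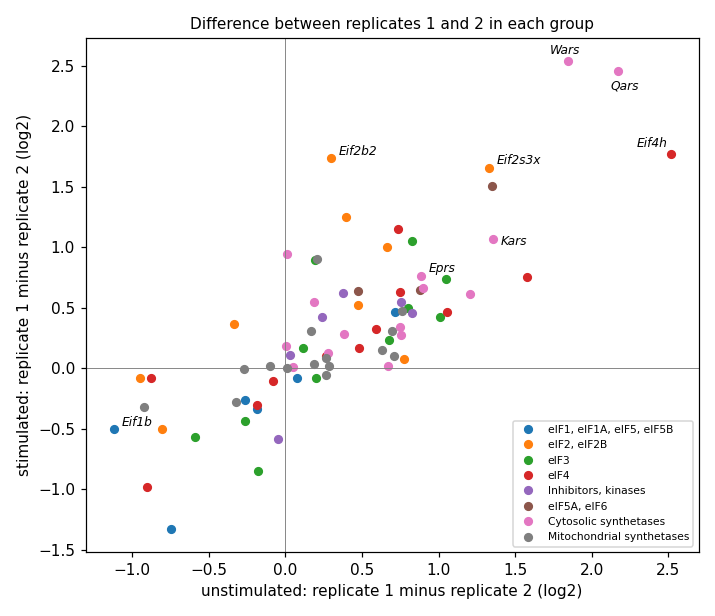
Replicate 1 minus replicate 2 on the log2 scale in unstimulated (horizontal axis) and stimulated cells (vertical axis), with 1 point for each of the 77 genes, coloured by role. The 55 genes at the upper right, where both differences are positive, are higher in replicate 1 of both groups, with Qars, Wars and Eif4h farthest out.

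Promoters were available for 58 of the 77 genes, from RefSeq on GRCm38.p6, and were searched over the 250 bases before each annotated start. The 3 motifs were the CARE of the amino acid response, which ATF4 binds (TGATGNAA), the E-box bound by MYC (CACGTG) and the NF-kB consensus, all on both strands. The sequences shown are those of the genes with the largest positive and negative differences, of a synthetase with a CARE and of the E-box gene with the largest difference. They run 5′ to 3′ towards the start, with matches in capitals.
Eprs, chr1:185362794-185363043, plus strand: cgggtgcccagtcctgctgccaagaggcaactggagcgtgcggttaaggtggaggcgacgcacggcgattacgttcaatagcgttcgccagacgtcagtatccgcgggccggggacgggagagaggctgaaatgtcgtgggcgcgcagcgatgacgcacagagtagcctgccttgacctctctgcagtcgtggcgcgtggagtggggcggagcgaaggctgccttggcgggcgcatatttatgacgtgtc
Ears2, chr7:122067087-122067336, minus strand: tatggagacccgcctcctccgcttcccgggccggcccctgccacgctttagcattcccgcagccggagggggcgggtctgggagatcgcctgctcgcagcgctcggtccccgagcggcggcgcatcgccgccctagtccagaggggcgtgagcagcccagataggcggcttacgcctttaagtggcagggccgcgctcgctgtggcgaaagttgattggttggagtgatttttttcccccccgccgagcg
Tars, chr15:11399659-11399908, minus strand: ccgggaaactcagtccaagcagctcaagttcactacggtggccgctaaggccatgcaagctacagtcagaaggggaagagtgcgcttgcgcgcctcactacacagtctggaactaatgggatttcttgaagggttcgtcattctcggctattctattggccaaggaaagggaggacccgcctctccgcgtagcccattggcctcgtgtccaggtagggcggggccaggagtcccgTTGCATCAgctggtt
Eif4h, chr5:134639410-134639659, minus strand: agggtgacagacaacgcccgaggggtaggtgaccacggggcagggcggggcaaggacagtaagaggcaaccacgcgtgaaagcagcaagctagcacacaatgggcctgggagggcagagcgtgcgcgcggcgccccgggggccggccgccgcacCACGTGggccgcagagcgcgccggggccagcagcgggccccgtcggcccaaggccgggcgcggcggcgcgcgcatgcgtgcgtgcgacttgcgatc

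None of the 3 motifs was found in the windows of Eprs and Ears2, which says only that these letters are not there. CARE matches were found in 3 of the 58 genes (5.17%, against 3.91% of all genes in the table): Tars, Gars and Eif2s3x, whose log2 differences were 0.13, 0.26 and -0.26. The NF-kB consensus was matched in Iars2 and Eif2ak4 (3.45%, against 4.46%). The E-box was found in 9 (15.5%, against 6.86%), 8 of them initiation factors: Eif1b, Eif3f, Eif3k, Eif4a1, Eif4e, Eif4h, Eif5a and Eif5a2, with Iars the ninth. Their differences were positive in 9 of 9, from 0.01 to 0.55 with a median of 0.14, compared with 31 of 49 and a median of 0.08 among the genes without a match, and with 51.0% positive over all genes. This was not tested, and of the 3 that were refitted under alternatives, Eif4e, Eif4a1 and Eif5a, each changed sign in at least 1 refit. Iars and Eif4e also each had an unused probe set with a negative difference, -0.11 and -0.04. The groups overlapped in every one of the 9, and the median GC content of these promoters was 58.8% in the 58 genes and 52% in all genes. A match is a description of the sequence and no evidence that a factor binds it.

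Other genes of translation and its control, from 6 lists, did not pass the limma threshold either: 0 of 106 were called in either direction, and 2 were higher (1.89%, against 2.07% of all genes) and 0 lower (against 1.42%) at an unadjusted p under 0.05. That share is near the one of all genes. All stimulated values lay above all unstimulated ones for 4 of the 106, Mtif3, Denr, Atf5 and Cebpg, against 3.68% of all genes. They lay below for 0, against 3.46%. Mtif3, which encodes mitochondrial initiation factor 3, was at 7.37, 6.66 and 6.95 without and 8.30, 7.37 and 8.60 with stimulation and differed by 1.10 ± 0.35 (SE, 95% interval 0.28 to 1.91, limma adjusted p = 0.99997). Its lowest stimulated value exceeded the highest unstimulated one by less than 0.01. Denr, a factor for reinitiation after short upstream reading frames, was at 6.79, 6.66 and 7.04 without and 7.20, 7.52 and 7.52 with stimulation. It differed by 0.58 ± 0.18 (SE, 95% interval 0.15 to 1.02, limma adjusted p = 0.99997).

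The list of elongation and release factors had 15 genes and a median of -0.02. Pelo, which rescues stalled ribosomes, differed by 0.31, Dhps, the first enzyme of hypusine synthesis on eIF5A, by 0.44, and Eef2, the translocation factor, by 0.04 (95% interval -1.43 to 1.51). Synthetase partners had 9 genes and a median of 0.03, led by Aimp2, a scaffold of the multisynthetase complex, at 0.35 and Pstk, the kinase of selenocysteine synthesis, at 0.23. Gfm2, a mitochondrial factor for ribosome recycling, differed by 0.52 in a list of 10 genes with a median of 0.03. Among 24 partners of initiation, median 0.05, Bzw1 differed by 0.69 and Pabpc1, the poly(A)-binding protein, by -0.20.

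Regulatory lists were likewise centred near 0. ATF4 and its targets in the integrated stress response had 21 genes and a median of 0.05, with 11 positive and 10 negative differences. Atf4 itself was at 8.57, 8.20 and 8.42 without and 8.29, 8.27 and 8.97 with stimulation and differed by 0.11. Atf5, another factor of that response, differed by 0.38 and did not overlap, whereas Herpud1, of protein degradation at the endoplasmic reticulum, differed by -0.94 (95% interval -2.08 to 0.21). Ddit3, which encodes CHOP, differed by 0.32, and Ppp1r15a, the phosphatase subunit that reverses eIF2 phosphorylation, by 0.48 (95% interval -0.91 to 1.86). The mTORC1 list had 27 genes and a median of 0.05. In it Flcn, which encodes folliculin, differed by 0.77, Rragd, a Rag GTPase, by -0.30, and Mtor by -0.11.

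**Figure D5:**
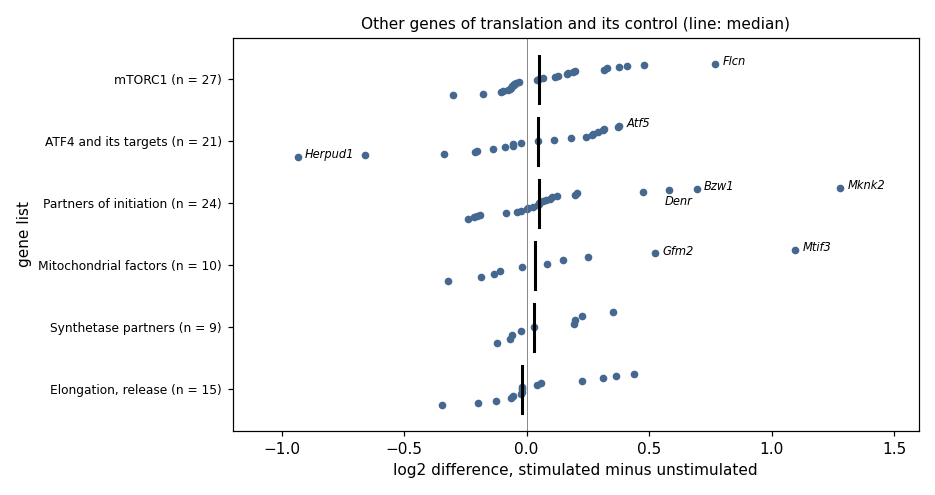
Log2 difference, stimulated minus unstimulated, for the genes of 6 lists around initiation and tRNA charging, with 1 point per gene and a black line at each list's median. The medians lie between -0.02 and 0.05, and Mknk2 (1.28, 95% interval -0.98 to 3.54), a kinase of eIF4E named here after its value was seen, and Mtif3 are farthest to the right.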

How the data were processed

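Total RNA of 6 samples was prepared with the Affymetrix WT Pico reagent kit, per the labels' protocols, with 1 array for each sample. The authors deposited 17551 probe sets as intensities, made with Expression Console and RMA per the submitters' processing notes. Versions and a genome build are not named there. The deposited intensities are linear, so log2 was taken. Names came from the platform's annotation, in which 13963 probe sets had 1 symbol and were used, 970 had several and 2618 had none. Of several probe sets of a gene, the one with the highest mean was kept, and 8 probe sets that name one of these genes beside others were left out.

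All 12780 genes were fitted with lmFit and eBayes of limma 3.58.1 (R 4.3.3, no covariates, two-sided), with Benjamini-Hochberg adjustment over all of them. The fit was tested on simulated data drawn independently for each gene and array. Those data hold no deviation shared by same-numbered arrays. The genes and lists were chosen with earlier results of these data known. Values on every array are given for genes past the threshold, the 8 highest and 8 lowest by moderated statistic, and 15 fixed genes, of which 5 were not measured. From each other list the text names genes past the threshold or else the 2 with the largest statistic, and 6 fixed genes. Further genes named, the second probe sets and the order of replicates were chosen after their values were seen. Alternatives changed the variance model, the normalisation, the centring, the array weights, a block, a covariate, the arrays, the probe sets or the filter. Plots used matplotlib 3.10.9 (Python 3.11.15).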

Additional observations from a re-analysis of the deposited data

How the results depend on the processing

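In 18 refits under alternatives, 0 of the 77 genes were called in either direction. Their median difference ran from -0.02 (without unstimulated replicate 2) to 0.14 (without stimulated replicate 2). Of the 24 genes that the naming rule took for refits (Cars and Qars were not among them), 17 kept the sign of their difference in every refit that held them. The exceptions were Eif4e, Eif2ak4, Eif3a, Wars, Eif4ebp1, Eif4a1 and Eif5a, with 19 changes of sign in 429 fits of single genes. Eprs ran from 0.84 to 1.28 over its 18 refits, and its limma adjusted p from 0.0502, with the replicate block, to 0.99999.

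At an unadjusted p under 0.05, 2 of the 77 were higher. The main fit called 2 genes of all 12780 higher and 0 lower, neither among the 77. Leaving out 1 array, or both arrays of a replicate number, or a threshold of 0.01, called 0 higher. Quantile normalisation once more called 3 higher and 1 lower. Array weights called 28 higher and 18 lower, and the interquartile range as a covariate 11 higher and 4 lower. Among the 77, the count with all stimulated values below was 3 after quantile normalisation and 0 after centring on medians, compared with 1. With the replicate number as a block, 30 genes were higher and 8 lower, with 0 of the 77 among them. Deviations of the same-numbered arrays correlated at 0.73, 0.59 and 0.06 for numbers 1, 2 and 3. Number 3 showed almost no such correlation and the labels state no pairing, so the numbers were not taken to pair the samples. Even so, 5 of 6 arrays correlated best with their own number. The cause of these changes was not tested.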

Other observations

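Probe sets that name one of these genes beside others were in no comparison. The probe set shared by Aars, the alanyl-tRNA synthetase, and Exosc6 differed by 0.11 on the log2 scale. The probe set of Eif4ebp3, another 4E-binding protein, and Ankhd1 differed by 0.66, with overlapping groups. The 2 probe sets of Eif3j1 and Eif3j2, which encode forms of a loosely bound eIF3 subunit, differed by 0.29 and 0.08. Those shared by Eif4a3 and Eif4a3l1 differed by 0.31 and 0.28, near the 0.33 of the probe set that names Eif4a3 alone. The 2 probe sets that list Eif1a among several predicted genes differed by -0.16 and -0.08, again with overlapping groups.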
